A study of Mus musculus with 2 samples.

Results

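The Mir1, Mir133 and Mir206 genes are a family of microRNA genes of striated muscle. Their 6 members among the 1973 genes counted are Mir1a-1, Mir133a-2, Mir133a-1, Mir1b, Mir206 and Mir133b, chosen by gene name and not by level. Counts on the strand of the gene were taken for 5 of them. For Mir1b the counts on the opposite strand were taken, because Mir1a-2, which has no row of its own, lies there. The data are small RNA libraries from whole hearts of newborn B6NCrl mice, a C57BL/6N substrain, on postnatal day 0. There is 1 group of 2 libraries, each made from total RNA of a single heart and limited to molecules under 30 nt. Pup 1 gave replicate 1 and pup 3 gave replicate 2. No treatment or allele is given for either pup and sex was not collected. Whole hearts hold muscle, vessel, connective tissue and blood cells together, so fewer cells of a type and less RNA per cell cannot be told apart. With no other condition, the data give levels, ratios within a heart and the difference between the hearts.

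A microRNA is cut from a hairpin precursor, and the strand that is kept finds messenger RNAs mainly through its seed, bases 2 to 8. The muscle genes lie in pairs, each with a Mir1 or Mir206 gene beside a Mir133 gene. A pair can be transcribed as 1 long RNA. In heart and skeletal muscle miR-1 and miR-133 are known as abundant microRNAs that act on muscle differentiation and growth, under the control of factors such as SRF and MEF2. miR-206 is known as a microRNA of skeletal muscle and shares its 3p seed with miR-1.

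The mature sequences show what can and cannot be told apart among the members. They are from RefSeq (GRCm38.p6, the same assembly as mm10), run 5′ to 3′, and have the seed in capitals. 3 of the 6 members matched the RefSeq table, with 5 mature sequences.
miR-206-3p: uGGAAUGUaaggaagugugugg
miR-206-5p: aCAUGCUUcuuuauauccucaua
miR-1a-1-5p: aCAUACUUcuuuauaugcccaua
miR-133b-3p: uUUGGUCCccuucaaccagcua
miR-133b-5p: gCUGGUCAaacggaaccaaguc
The 3p arm of Mir206 lies at chr1:20679055-20679076 and the 3p arm of Mir133b at chr1:20682834-20682855, both on the plus strand. The 5p arms of Mir1a-1 and Mir206 were identical at 20 of 23 bases. They differed by A5G, G17C and C19U, written as the Mir1a-1 base, the position from the 5′ end and the Mir206 base, and the first of these falls in the seed. Among the 1738 mature sequences of the table, the seed of miR-206-3p was also in miR-6349 and miR-6382, whose genes had 0 counts in both hearts. The other 4 seeds had no further match there, and miR-1a-3p, miR-133a-3p and miR-133a-5p were not matched. For Mir206 and Mir133b the whole precursors are shown with the mature arms in capitals, because they mark the contrast between a member that shares no long stretch and one that does.
Mir206: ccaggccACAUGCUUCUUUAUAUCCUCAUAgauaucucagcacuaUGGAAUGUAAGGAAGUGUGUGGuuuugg
Mir133b: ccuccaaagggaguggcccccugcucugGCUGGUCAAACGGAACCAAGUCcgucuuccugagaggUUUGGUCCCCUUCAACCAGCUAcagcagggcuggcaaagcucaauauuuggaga

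Each annotated precursor was searched for stretches of 20 nt that occur, on either strand, in another microRNA precursor that it does not overlap. Mir206 had none in its 54 windows of that length. Mir133b had 2 of 100 windows shared, with Mir133a-1 and Mir133a-2, and they spanned bases 66 to 86 of the precursor. That stretch covers 21 of the 22 bases of miR-133b-3p, so in this comparison a single 3′ base sets miR-133b-3p apart. At 22 nt Mir133b had 0 shared windows.
Mir1a-1 had 9 of 58 windows shared, all in 1 stretch of 28 nt from base 45 to base 72, with Mir1a-2 and, on the other strand, Mir1b. Its 5p arm, bases 10 to 32, lay outside. The Mir133a genes had the longest shared parts, with 17 of 49 windows in Mir133a-1 and 17 of 85 in Mir133a-2. In both, a stretch of 24 nt and a stretch of 31 nt were shared. Mir1b had 9 of 103 windows shared, with Mir1a-1. A read that falls wholly within such a stretch matches more than 1 precursor, and the tables list reads that matched several places apart from the genes.

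**Figure D1:**
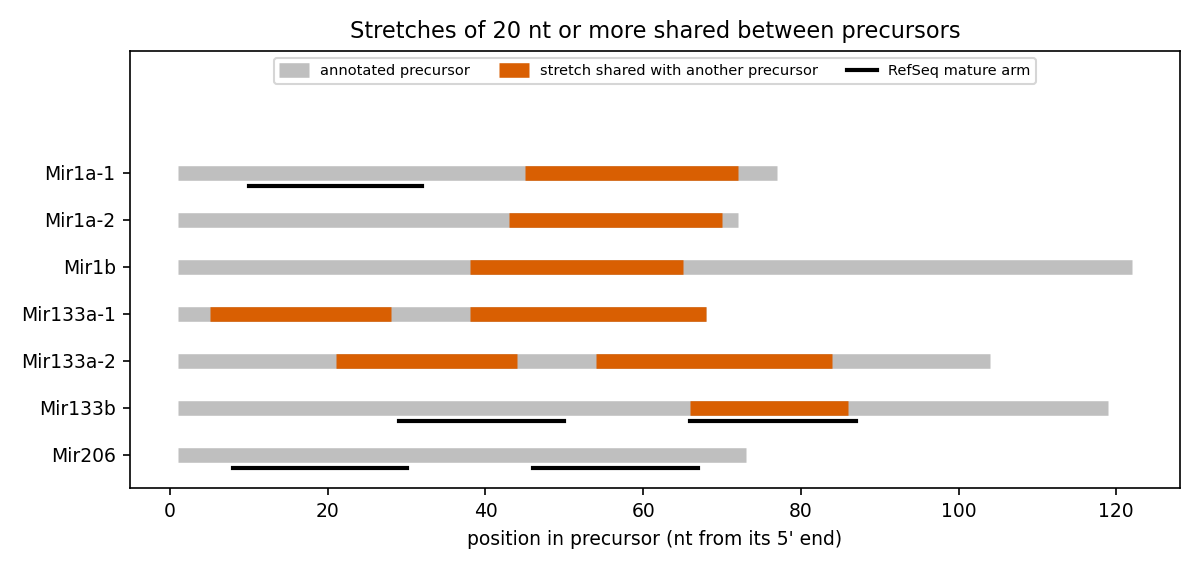
Annotated precursors of the family, drawn as grey bars by position from the 5′ end in nt, with stretches of 20 nt or more that occur in another precursor in orange and RefSeq mature arms as black lines. Mir206 has no orange stretch, Mir133b has one of 21 nt under its 3p arm, and each Mir133a precursor has one of 24 nt and one of 31 nt.

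By position (GENCODE M21, mm10) the members form 3 pairs. Mir1a-1 (ENSMUSG00000070144, chr2:180389048-180389124) and Mir133a-2 (ENSMUSG00000065460, chr2:180398379-180398482) lie on the plus strand, 9254 bases apart. They are intergenic in GENCODE and lie within the long noncoding gene Mir1a-1hg of RefSeq. Mir133a-1 (ENSMUSG00000065399, chr18:10782909-10782976, minus strand) and Mir1a-2 lie 2504 bases apart in an intron of Mir133a-1hg, antisense to an intron of Mib1, which encodes a ubiquitin ligase of the Notch pathway. Mir1b (ENSMUSG00000080662, chr18:10785446-10785567, plus strand) spans all 72 bases of Mir1a-2 on the other strand. Mir206 (ENSMUSG00000065559, chr1:20679010-20679082) and Mir133b (ENSMUSG00000065480, chr1:20682769-20682887) lie on the plus strand, 3686 bases apart, in exons of the long noncoding gene Gm28653, which RefSeq calls Lincmd1.

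The counts credited to the family were few. The 6 members had 782 counts in replicate 1 and 1379 in replicate 2, set against 6373797 and 7630427 sense-strand gene counts. The opposite-strand counts of Mir1b, 171 and 393, are among the counts of the members but not in those totals. The share was 0.0123% in replicate 1, with an exact 95% interval (Clopper-Pearson) of 0.0114 to 0.0132, and 0.0181% in replicate 2, with 0.0171 to 0.0191. This gave a mean of 0.0152% ± 0.00410 (SD, n = 2). Intervals cover counting error only.
Reads that matched several places numbered 4974412 in replicate 1 and 5980508 in replicate 2, or 35.9% and 34.6% of all reads. They were 6361-fold and 4337-fold as many as the counts of the 6 members. The tables do not say which genes these reads fit, and how many of them came from the members was not tested.

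As a check of the labelled tissue, the heart muscle markers Mir208b, Mir208a and Mir499, encoded within the myosin genes Myh7, Myh6 and Myh7b, were abundant. They held 12.2% of counts in replicate 1 and 12.5% in replicate 2, and none of their precursors had a shared window. The counts credited to the 6 family members stood 996-fold below the sum of these markers in replicate 1 and 692-fold below it in replicate 2. Every family member but Mir206 had shared windows, and reads that matched several places are not in these counts. How far those reads would change the fold was not tested. Of the markers of other cells, the erythroid Mir451a had 1084 ± 217 CPM (counts scaled to a sense-strand library total of 1000000), the leukocyte Mir223 had 403 ± 9.21 CPM and the hepatocyte Mir122 had 40.2 ± 6.21 CPM (SD, n = 2). The neuronal markers Mir9-2, Mir124a-1, Mir124a-2 and Mir124a-3 were each at 0 counts. By counting error alone this allows up to 0.471 CPM in replicate 1 and 0.393 CPM in replicate 2 (3 counts each, the limit used here for a count of 0). Reads that matched several places are not in these counts, so the neuronal microRNAs are not shown to be absent. How many of those reads came from them was not tested.

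Mir206 was the highest member by the counts credited to each gene. It had 454 counts in replicate 1 and 790 in replicate 2, which is 71.2 CPM (exact interval 64.8 to 78.1) and 104 CPM (96.4 to 111). Its mean of 87.4 ± 22.8 CPM (SD, n = 2) placed it at rank 161 of all genes counted. It made up 58.1% of the family counts in replicate 1 and 57.3% in replicate 2.
Mir133b, its neighbour in the same long noncoding gene, had 35 and 49 counts in replicates 1 and 2. That is 5.49 and 6.42 CPM, with a mean of 5.96 ± 0.658 CPM. Mir206 exceeded Mir133b by 13.0-fold in replicate 1 (exact 95% interval 9.19 to 18.9) and 16.1-fold in replicate 2 (12.1 to 21.98). The intervals of both hearts overlapped and lay well above 1. Unlike Mir206, Mir133b had shared windows, and how far reads that matched several places would change this ratio was not tested.

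Mir1b came next by its opposite-strand counts, which fall on the strand of Mir1a-2. These were 171 in replicate 1 and 393 in replicate 2, or 26.8 CPM (23.0 to 31.2) and 51.5 CPM (46.5 to 56.9), a mean of 39.2 ± 17.4 CPM (SD, n = 2). The total they are scaled to is the sense-strand one and does not hold them. On its own strand Mir1b had 7 and 10 counts in replicates 1 and 2.
The opposite strand thus held 96.1% of the counts at Mir1b in replicate 1 (exact interval 92.1 to 98.4) and 97.5% in replicate 2 (95.5 to 98.8). Most microRNA genes had no such counts: of 369 genes with 10 or more counts on both strands together in each heart, 323 had 0 opposite-strand counts in both hearts and 12 had more than 50% there. Those 12 are also the genes with 100 or more opposite-strand counts in each heart, and each of the 12 has another microRNA gene annotated on the opposite strand. Mir1b was 11th of the 12 by share. The 5 listed first by share were all at 100% in both hearts. They were Gm24083 (opposite Mir191), Mir142b (opposite Mir142), Gm25750 (opposite Mir380), Gm25252 (opposite Mir376a) and Gm24321 (opposite Mir409). Gm25927 (opposite Mirlet7e) was also at 100% in both hearts and tied with them.
Of the other 5 members, 4 had 0 opposite-strand counts in both hearts and Mir1a-1 had 2 in replicate 1 and 0 in replicate 2.

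Mir1a-1 and Mir133a-1 were lower, and their order could not be told. Mir1a-1 had 64 counts in replicate 1 and 59 in replicate 2, or 10.04 CPM (7.73 to 12.8) and 7.73 CPM (5.89 to 9.97), a mean of 8.89 ± 1.63 CPM. Mir133a-1 had 44 and 73 counts, or 6.90 CPM (5.02 to 9.27) and 9.57 CPM (7.499 to 12.03), a mean of 8.24 ± 1.88 CPM. Mir1a-1 was the higher of them in replicate 1 and Mir133a-1 in replicate 2. Mir133b, at 5.96 CPM, stood below Mir133a-1 in both hearts, but its counting interval overlapped that of Mir133a-1 in each.
Mir133a-2 was the lowest member, with 14 and 15 counts in replicates 1 and 2, or 2.20 CPM (1.20 to 3.69) and 1.97 CPM (1.10 to 3.24), a mean of 2.08 ± 0.163 CPM. Its intervals lay below those of Mir133b in both hearts. All 6 members had 10 or more counts in both hearts, as had 359 genes in all, whose median level was 64.4 CPM.

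**Figure D2:**
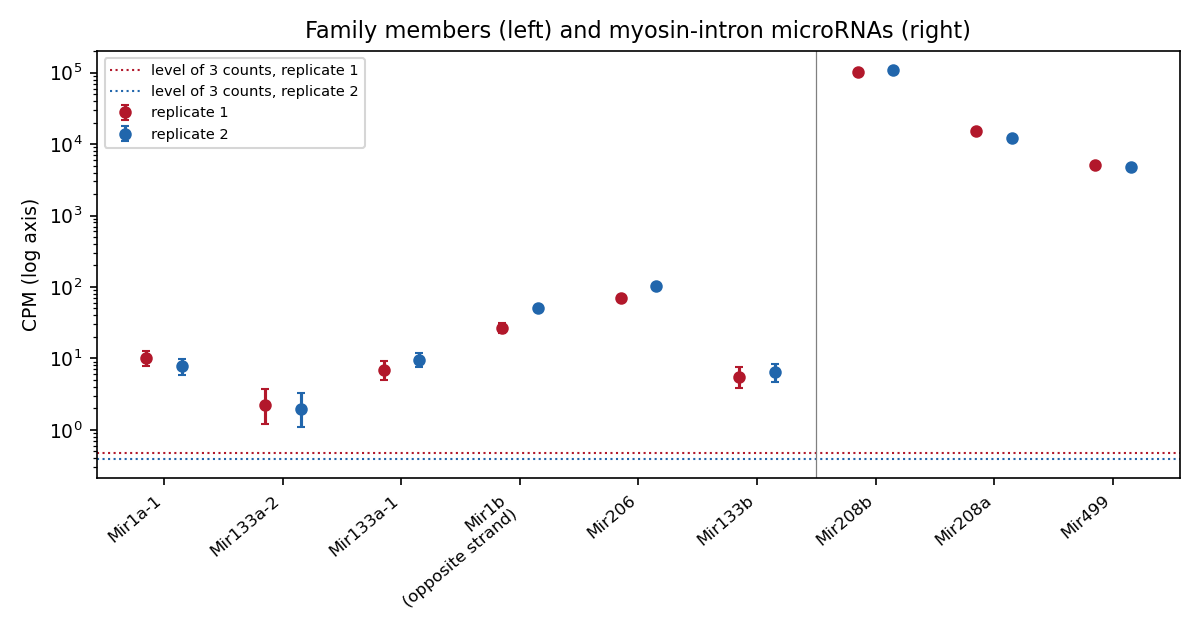
Level of each member and of the 3 myosin-intron microRNAs in CPM on a log axis, replicate 1 in red and replicate 2 in blue, with exact 95% counting intervals and dotted lines at the level of 3 counts. The members lie between 1.97 and 104 CPM and the myosin-intron microRNAs between 4847 and 108150 CPM.

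Within each pair the Mir1 or Mir206 gene was credited with more counts than its Mir133 neighbour, in both hearts. On chromosome 2, Mir1a-1 exceeded Mir133a-2 by 4.57-fold in replicate 1 (2.54 to 8.83) and 3.93-fold in replicate 2 (2.20 to 7.47). On chromosome 18, Mir1b by its opposite strand exceeded Mir133a-1 by 3.89-fold (2.78 to 5.54) and 5.38-fold (4.18 to 7.01) in replicates 1 and 2.
These ratios are of counts and not per length, and which part of a precursor the counted reads cover is not given. In each pair the Mir133 gene had the larger part of its windows shared with another precursor. Reads that matched several places are not in these counts. Whether those reads would change the order within a pair was not tested. Per nt of annotated precursor, a setting added once the data had been seen, the mean log2 ratio was 4.54 in place of 3.84 for Mir206 over Mir133b and 2.54 in place of 1.93 for Mir133a-1 over Mir133a-2.

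Between copies of a mature sequence, the copy on chromosome 18 was credited with more counts than the copy on chromosome 2. Reads wholly within a stretch that both copies share match both, and reads that matched several places are not in these counts. The ratios therefore do not compare the output of the shared sequence. Mir133a-1 exceeded Mir133a-2 by 3.14-fold in replicate 1 (1.69 to 6.21) and 4.87-fold in replicate 2 (2.77 to 9.14). Mir1b, by its opposite strand, exceeded Mir1a-1 by 2.67-fold in replicate 1 (1.99 to 3.62) and 6.66-fold in replicate 2 (5.06 to 8.91), intervals that do not overlap. The chromosome 1 pair held 62.5% of the family counts in replicate 1 and 60.8% in replicate 2. The chromosome 18 pair held 27.5% and 33.8%, and the chromosome 2 pair 9.97% and 5.37%. Mir206, on chromosome 1, was the only member with no shared window. Whether the reads listed as matching several places would change the order of the copies or of the pairs was not tested.

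**Figure D3:**
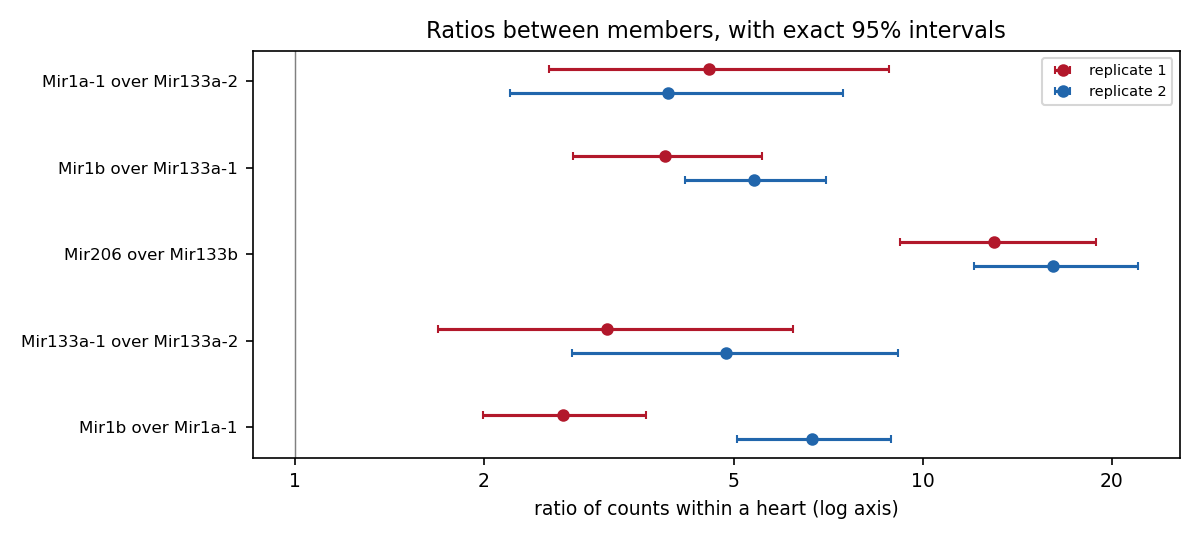
Ratio of counts between members within each heart on a log axis, replicate 1 in red and replicate 2 in blue, with exact 95% intervals. All 10 intervals lie above 1, and only for Mir1b over Mir1a-1 do the intervals of the hearts not overlap.

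The hearts were compared over all genes, with the members among them. In exact binomial tests of each gene given the library totals, over the 435 genes with 10 or more counts in the hearts together, 31.3% passed a Benjamini-Hochberg adjusted p of 0.05, 12.0% with replicate 1 higher and 19.3% with replicate 2 higher. Of the 6 members, 2 passed, Mir1b and Mir206, both lower in replicate 1, a share near that of all genes. It was above the 14.6% of the 178 other genes whose totals fell in the range of the members. With 6 members, neither likeness nor difference of these shares is shown. The test compares 2 libraries and counts sampling noise only, with no replicate on either side.
Mir1b had 0.521 times the level in replicate 1 that it had in replicate 2 (exact 95% interval 0.433 to 0.625; log2 ratio -0.94; exact binomial adjusted p = 1.79e-12). Only 4 called genes differed more on the log2 scale, Mir7226, Mir1927, Mir702 and Mir181b-2. Mir206 had 0.688 times the level in replicate 1 (0.612 to 0.773; log2 ratio -0.54; exact binomial adjusted p = 8.73e-10).
With edgeR's exact test and a biological coefficient of variation set to 0.1, 3 genes passed, Mir181b-2, Mir1b and Mir362, and the adjusted p was 0.0262 for Mir1b and 0.368 for Mir206. At 0.2 edgeR called 0 genes, with 5 at an unadjusted p under 0.05, and both members had an adjusted p of 1.00.

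The remaining 4 members did not pass, and the interval of each ratio included 1. The ratio of replicate 1 to replicate 2 was 1.30 for Mir1a-1 (0.897 to 1.88; exact binomial adjusted p = 0.318) and 1.12 for Mir133a-2 (0.4997 to 2.48; adjusted p = 0.955). It was 0.722 for Mir133a-1 (0.485 to 1.06; exact binomial adjusted p = 0.228) and 0.855 for Mir133b (0.538 to 1.35; adjusted p = 0.723). By value, both chromosome 2 members were the higher in replicate 1 and the members on chromosomes 1 and 18 the lower.
The median log2 ratio was -0.34 over the 6 members and -0.02 over all genes tested, and the median absolute log2 ratio was 0.42 against 0.21. Among the 178 other genes with a total between 29 and 1244 counts, the range of the members, 14.6% passed.
Beside Mir206, Mir486, a microRNA of skeletal muscle and red cells, had 71.2 CPM in replicate 1 and 71.3 CPM in replicate 2. Markers of other cells differed in both directions. The level in replicate 1 relative to replicate 2 was 0.669 for the leukocyte Mir155, 0.752 for the red cell Mir451a and 0.803 for the hepatocyte Mir122, but 1.57 for the red cell Mir144, and these 4 passed the same test. The leukocyte Mir223, at 1.03, did not. Of the myosin-intron microRNAs, Mir208b had 0.941 times the level in replicate 1, Mir208a 1.29 times and Mir499 1.05 times. What part cell makeup or library preparation had in the differences of Mir1b and Mir206 was not tested.

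**Figure D4:**
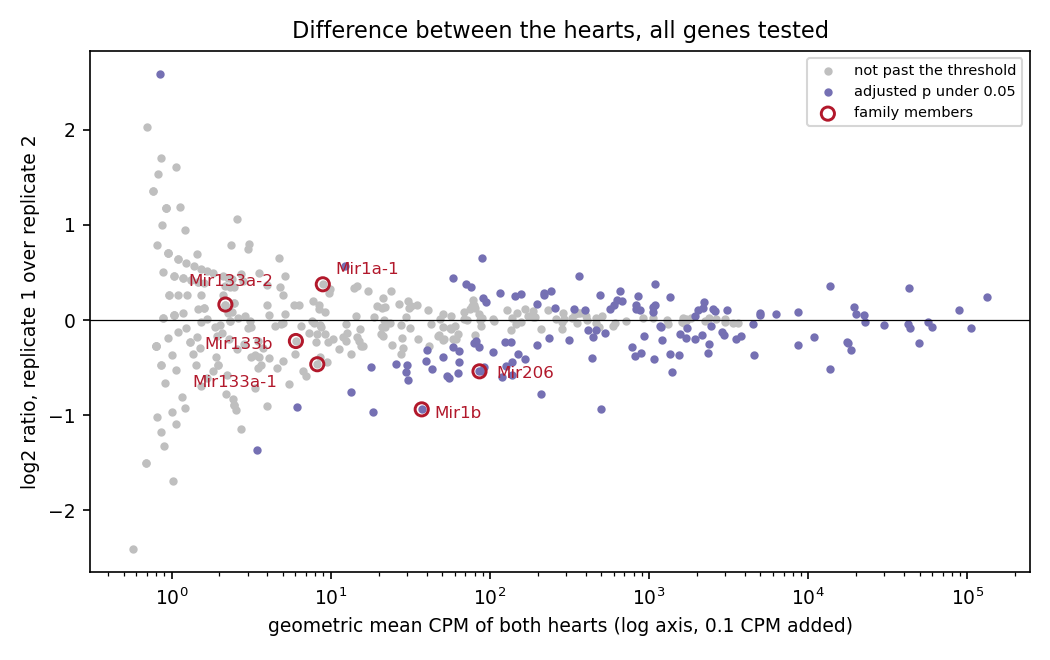
Log2 ratio of replicate 1 over replicate 2 against the geometric mean CPM of both hearts on a log axis, for the 435 genes tested, with the members circled in red and genes past the threshold in purple. Mir1b at -0.94 and Mir206 at -0.54 are the members past the threshold, and both lie below 0.

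Set beside other microRNA genes, with or without shared sequence, Mir206 lay above the median level and the other 5 members below it. Of the non-member genes, 924 shared a stretch of 20 nt with another precursor. Of those, 76 (8.23%) had 10 or more counts in both hearts, with a median of 69.6 CPM. Among 964 genes with no such stretch 277 (28.7%) did, with a median of 68.2 CPM. Both medians leave out genes under that minimum, which are a larger part of the genes with a shared stretch. Whether shared sequence bears on level was not tested. Mir1a-1 was above 21.1% of the 76 genes and Mir206 above 54.2% of the 277.
In RefSeq, 42 non-member genes with 10 or more counts in both hearts have a mature sequence that is identical in another gene, and their median was 57.8 CPM. The highest were Mirlet7f-2 at 2381 ± 299 CPM, Mir16-1 at 1697 ± 155 CPM and Mir92-1 at 1170 ± 33.8 CPM (SD, n = 2). The lowest were Mir103-1 at 3.68 ± 0.543 CPM, Mir199a-1 at 2.44 ± 1.00 CPM and Mir19b-2 at 2.29 ± 0.0887 CPM, all above the mean of Mir133a-2.

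By distance in log2 CPM over the 2 hearts, the gene nearest to Mir206 was Mir1981, at a distance of 0.06, with 73.4 CPM in replicate 1 and 107 CPM in replicate 2, followed by Mirlet7a-2 and Mir221. Nearest to Mir1b were Mir199a-2, Mir138-1 and Mir122, at 0.38 to 0.46. Mir1a-1 lay nearest to Mir3058, Mir1930 and Mir1968, and Mir133a-1 nearest to Mir201, Mir190b and Mir200a. Mir133a-2 had the same counts in both hearts as Mir6945, and then came Mir3100 and Mir6975. The nearest to Mir133b were Mir106a, Mir758 and Mir3064. With 2 hearts, this likeness says only that levels were close.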

How the data were processed

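The deposited tables hold raw read counts per gene, 1 table for each heart, and per the file headers of the accompanying lists the authors' assembly was mm10 and their annotation GENCODE M4. The aligner, counter and trimming were not given in the sources used here. Each table has 3 unlabelled columns of counts. The first equals the sum of the others in every gene row, and the second, with 92.9% of the counts in replicate 1 and 92.8% in replicate 2, was taken as the strand of the gene. Rows that name no gene (unmapped reads 12.6% and 15.5%, reads that matched several places, reads in no gene on either strand 1.93% and 2.28%, ambiguous 0) stayed out of totals and tests.

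Gene names and positions were taken from GENCODE M21, where 1894 of 1973 identifiers matched and the other 79 had 0 sense-strand counts. The members, lists and tests were chosen with earlier results of these data known. CPM used the sense-strand total, and log2 ratios 0.5 added counts. The genes named are the members, the myosin-intron microRNAs, a list of cell type markers and the 3 genes nearest to each member. Also named are the 3 highest and 3 lowest genes with a mature sequence identical in another gene, and sharers of a seed. The 5 genes listed first by opposite-strand share are named too, with a gene tied with them. The other called genes named beside Mir1b were picked after their values were seen. With 1 library a side, edgeR's quasi-likelihood test could not be fitted, so exact binomial tests (2-sided) were used. They were also run on simulated counts with planted differences and sampling noise only. Such counts cannot show how the tests behave where hearts differ by more than sampling noise. Alternatives were other scalings (edgeR TMM, DESeq2 size factors), totals, strands, count minimums and pseudocounts, thinning, preset spreads and each heart alone. Tools were Python 3.11.15, NumPy 2.4.6, pandas 2.3.3, SciPy 1.17.1, statsmodels 0.14.6, matplotlib 3.10.9, R 4.3.3, edgeR 4.0.16 and DESeq2 1.42.0.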

Additional observations from a re-analysis of the deposited data

Results flagged for a closer look

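Mir1b had counts on its own strand, which the comparisons do not use, above the 3 counts that a count of 0 would allow. There were 7 in replicate 1 and 10 in replicate 2, or 1.10 and 1.31 CPM.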

How the results depend on the processing

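The family share of 0.0152% was 0.00851% with the reads that matched several places in the total and 0.00682% of all reads, and Mir206 with those reads in the total 49.0 CPM. With 1 heart left out it ranged from 0.0123% to 0.0181%, without Mir1b it was 0.0113%, and with the opposite-strand counts of 12 genes in the total, an alternative added after seeing the data, 0.0141%. Per precursor length, also added, the log2 ratios were 2.48 for Mir1a-1 over Mir133a-2, 4.54 for Mir206 over Mir133b, 2.54 for Mir133a-1 over Mir133a-2 and, with the length of Mir1a-2, 2.10 for Mir1b over Mir133a-1 and 2.16 for Mir1b over Mir1a-1. With 1 heart left out no difference between hearts can be computed, the log2 ratio of Mir1b over Mir1a-1 ranged from 1.41 to 2.73, and the opposite-strand share at Mir1b from 96.1% to 97.5%. Between hearts, the 136 genes called were 129 to 146 under 6 of the alternatives, with Mir1b and Mir206 called in each, and both called members had the same direction throughout. With edgeR's exact test at a preset variation of 0.1, 3 genes and 1 member were called, and at 0.2 both counts were 0, because these fits allow for more spread than sampling noise. No paired analysis was possible because there is 1 group. Depth limits Mir133a-2 most, at 14 and 15 counts.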
